A study of Mus musculus with 3 samples.

Results

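The tricarboxylic acid (TCA) cycle enzyme genes described here are 9 named genes, Cs, Idh3a, Idh3b, Idh3g, Idh2, Ogdh, Suclg1, Fh1 and Mdh2, of the 32285 genes in the deposited table. They were chosen by name, all 9 were found under their symbols, and none was used to define a cell state. They were measured by droplet single-cell RNA sequencing of spleen B cells from 3 LDHA-deficient and 3 LDHA-sufficient mice, which the labels give as KO and WT. Per the labels' protocols, live B cells were collected by flow sorting that also gated GL7, which stains B cells activated or in a germinal centre (GC). An antibody hashtag marks the cells of each mouse, and all 6 mice ran on 1 lane. The sources used here do not give the deleted stretch of Ldha, the cell type in which it was removed or the age of the mice. Each mouse is 1 replicate, and the hashtag numbers do not pair mice across genotypes.

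The TCA cycle runs in the mitochondrial matrix. It joins acetyl-CoA, made largely from pyruvate, to oxaloacetate, oxidises the resulting citrate stepwise and hands the electrons to the respiratory chain, and its intermediates also feed the synthesis of lipids, amino acids and nucleotides. LDHA, a subunit of lactate dehydrogenase, favours turning pyruvate into lactate and so draws on the same pyruvate that the cycle can take up. GC B cells are antigen-driven B cells that divide fast in the follicles of the spleen and mutate their antibody genes, and the study asks what LDHA does in their activation and division.

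The members follow the order of the cycle. Cs encodes citrate synthase, which makes citrate from acetyl-CoA and oxaloacetate. Idh3a encodes the catalytic subunit, and Idh3b and Idh3g the regulatory subunits, of the NAD-dependent isocitrate dehydrogenase, while Idh2 encodes the NADP-dependent mitochondrial enzyme that acts on the same substrate. Ogdh encodes the first component of the 2-oxoglutarate dehydrogenase complex. Suclg1 encodes the subunit of succinyl-CoA ligase shared by its ATP-forming and GTP-forming versions. Fh1 encodes fumarase, which turns fumarate into malate. Mdh2 encodes mitochondrial malate dehydrogenase, which remakes oxaloacetate and also serves the malate-aspartate shuttle.

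In GRCm38 coordinates of the GENCODE annotation, Cs lies at chr10:128337734-128362479 on the plus strand, Idh3a at chr9:54586334-54604661 on the plus strand and Idh3b at chr2:130279309-130284547 on the minus strand. Idh3g lies at chrX:73778963-73786897 on the minus strand, Idh2 at chr7:80094846-80115392 on the minus strand and Ogdh at chr11:6291633-6356642 on the plus strand. Suclg1 lies at chr6:73248382-73276911 on the plus strand, Fh1 at chr1:175600374-175625635 on the minus strand and Mdh2 at chr5:135778480-135790398 on the plus strand. Fh1 shares 5255 bases of its span with Kmo on the opposite strand, but 0 of its exons overlap an exon of Kmo, and Idh3b and Nop56 share 5 bases at their 3′ ends. Csl, a near copy of Cs, had 0 UMIs in B cells.

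Idh3a, Fh1 and Mdh2 were higher in activated B-like than in other non-GC B cells of every mouse, Mdh2 by a ratio of only 1.00 in LDHA-deficient mouse 2. For that reason the bases just before the starts of Fh1 and Mdh2 are shown, 250 for Fh1 at chr1:175625636-175625885 on the minus strand and 81 for Mdh2 at chr5:135778399-135778479 on the plus strand (RefSeq, GRCm38.p6, cut where the GENCODE gene begins). How many of all genes were higher in the activated cells of every mouse was not determined. Capitals mark the CCAAT box, searched as CCAAT on both strands.
Fh1: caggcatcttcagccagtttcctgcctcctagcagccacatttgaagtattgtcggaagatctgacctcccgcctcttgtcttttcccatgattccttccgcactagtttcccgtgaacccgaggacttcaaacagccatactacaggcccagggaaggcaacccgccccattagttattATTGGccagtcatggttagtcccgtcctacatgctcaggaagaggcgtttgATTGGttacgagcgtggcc
Mdh2: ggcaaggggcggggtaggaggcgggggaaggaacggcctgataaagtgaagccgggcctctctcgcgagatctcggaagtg
Fh1 had 2 matches, whose first bases lie 70 and 19 bases before the RefSeq start, and Mdh2 had 0. Mdh2 starts 94 bases from Styxl1, which runs the other way. Of 8 members with a RefSeq promoter, 5 held a CCAAT match in their 250 bases (Cs, Fh1, Idh2, Idh3b and Ogdh), against 33.8% of all 32851 promoters. The E-box CACGTG was found in 1 member (Ogdh) and 6.02% of all promoters, and a core of the NRF1 motif in 0 members and 3.74% of all promoters. A match is a description of letters and no evidence of binding.

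After the filters, 1849 cells with a single hashtag remained. Of these, 1801 were of the B lineage and 48 belonged to a myeloid cluster that was left out. Levels are given as CPM, a gene's UMIs per 1000000 UMIs of all genes, summed over the cells of a mouse and class. The LDHA-deficient mice gave 273, 362 and 238 B-lineage cells with 1131694 to 1708954 UMIs (unique transcript molecules) per mouse, against 319, 328 and 281 cells in the LDHA-sufficient mice, with 1426502 to 2221690 UMIs. The 9 members together held 704 to 1024 UMIs per LDHA-deficient mouse and 821 to 1672 per LDHA-sufficient mouse, so that their number limits the precision of every value below. Over all B cells they held between 224 UMIs (Idh2) and 1354 UMIs (Mdh2). Pan-B cell markers summed to 6190 CPM in these cells, and those of T and NK cells (9 of 9 detected) to 51.2 CPM. Red cell markers (6 of 6 detected) ranged over 33.2 to 162 CPM in LDHA-deficient and 24.4 to 3126 CPM in LDHA-sufficient mice, and their part in the values below was not tested.

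Cells were grouped by clustering without the members and named by markers. The states were GC B-like cells (172, with 11 of 11 GC markers and with mitotic genes such as Mki67 and Top2a leading), activated B-like cells (190, led by Mir155hg, Egr3 and Myc), interferon-responding B-like cells (154), marginal zone B-like cells (200), follicular B-like cells (489 and 579 in 2 clusters) and 17 plasma cell-like cells. Non-GC B cells are the B-lineage cells that are neither GC B-like nor plasma cell-like.

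GC B-like cells made up 3.30%, 1.66% and 2.10% of the B cells in the LDHA-deficient mice, against 19.4%, 22.9% and 5.34% in the LDHA-sufficient mice, and gave 8.39%, 4.93% and 8.44% of B cell UMIs against 40.4%, 44.3% and 12.7%. These are shares of cells collected by a sort that also gated GL7, and give no frequency in the spleen. The GC B-like cells fell into 3 sub-clusters. The LDHA-deficient mice had 14 of their 20 GC B-like cells in the sub-cluster low in GC markers, and the LDHA-sufficient mice had 31 of 152 there. That sub-cluster had 754 CPM of GC markers, against 2365 and 3038 CPM in the other sub-clusters, and a median of 16494 UMIs per cell, against 8480 and 10676. Set against the cells outside the GC B-like class, it still met 10 of the 11 GC markers, with Top2a and Mki67 leading. Its genes of G2 and M phase had 5905 CPM, against 1933 and 10220 CPM in the other sub-clusters. Cells doubled within 1 mouse cannot be seen by hashtag. By mouse, the sub-cluster low in GC markers gave 7, 3 and 4 GC B-like cells in LDHA-deficient mice, against 8, 13 and 10 in LDHA-sufficient mice, where mouse 3 thus had most of its 15 GC B-like cells in that sub-cluster.

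Ldha, the check of the labels, had 49.4, 48.6 and 71.6 CPM in all B cells of the LDHA-deficient mice, against 235, 242 and 158 CPM in the LDHA-sufficient mice. The genotypes did not overlap in any of the 6 classes of cells compared. Over all B cells the log2 value, LDHA-deficient minus LDHA-sufficient, was -1.91 (SE 0.17, adjusted p = 2.65e-04, edgeR quasi-likelihood test with Benjamini-Hochberg adjustment over all genes). In GC B-like cells it was -2.14 (SE 0.38, adjusted p = 0.114, edgeR). The test thus did not call Ldha itself in GC B-like cells, which limits what a missing call means there. In the other classes Ldha was called.

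The first question was whether the TCA cycle genes differ in LDHA-deficient cells. In non-GC B cells none of the 9 members passed the test, and none had a log2 value beyond -0.32 or 0.08. Cs, at the entry of the cycle, had 76.7, 74.5 and 97.2 CPM in LDHA-deficient mice, against 80.9, 77.2 and 82.8 CPM in LDHA-sufficient mice. These ranges overlapped, with the highest value in an LDHA-deficient mouse, and the log2 value was 0.01 (SE 0.13). Mdh2, at the end of the cycle, had 112, 122 and 113 CPM in LDHA-deficient mice, against 122, 119 and 107 CPM in LDHA-sufficient mice. The 6 mice lay close together, and the log2 value was -0.02 (SE 0.11), the smallest error among the members.

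The isocitrate dehydrogenases were likewise mixed between genotypes in non-GC B cells. Idh3a, the catalytic subunit, had 31.0, 19.7 and 36.9 CPM in LDHA-deficient mice, against 45.9, 22.3 and 18.8 CPM in LDHA-sufficient mice. The highest and the lowest mouse were both LDHA-sufficient, and the log2 value was -0.07 (SE 0.33). Idh3b had 78.5, 81.9 and 90.4 CPM in LDHA-deficient mice, against 80.0, 98.6 and 82.0 CPM in LDHA-sufficient mice (log2 value -0.08, SE 0.13). Idh3g had 78.5, 70.2 and 59.3 CPM in LDHA-deficient mice, against 70.0, 71.2 and 69.2 CPM in LDHA-sufficient mice (log2 value -0.03, SE 0.14). For both regulatory subunits the genotypes overlapped, and for Idh3g the LDHA-sufficient mice lay inside the range of the LDHA-deficient ones. Idh2, the NADP-dependent enzyme, had 22.4, 13.5 and 11.7 CPM in LDHA-deficient mice, against 22.5, 18.9 and 17.1 CPM in LDHA-sufficient mice. LDHA-deficient mice 2 and 3 were the lowest of the 6 and mouse 1 lay near the top, and the log2 value was -0.32 (SE 0.28, adjusted p = 0.970, edgeR).

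The later enzymes gave the same picture in non-GC B cells. Ogdh had 81.0, 92.9 and 81.6 CPM in LDHA-deficient mice, against 93.4, 79.7 and 71.7 CPM in LDHA-sufficient mice (log2 value 0.05, SE 0.13). Suclg1 had 58.6, 60.9 and 70.9 CPM in LDHA-deficient mice, against 73.4, 54.9 and 58.1 CPM in LDHA-sufficient mice (log2 value 0.00, SE 0.15). In both genes the highest and the lowest mouse were LDHA-sufficient. Fh1 had 75.0, 55.4 and 50.5 CPM in LDHA-deficient mice, against 51.7, 54.9 and 62.3 CPM in LDHA-sufficient mice (log2 value 0.08, SE 0.16). LDHA-deficient mouse 1 was the highest of the 6 and LDHA-deficient mouse 3 the lowest.

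Across all 8600 genes tested in non-GC B cells, 5 (0.0581%) were called by edgeR, and 0 of the 9 members were among them. At an unadjusted p under 0.05 the count of members was also 0, and DESeq2 called 0 of them. The median log2 value of the members was -0.02, beside -0.0035 for all genes tested. For 0 of the 9 members did the genotypes not overlap, beside 10.5% of all genes tested.

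**Figure D1:**
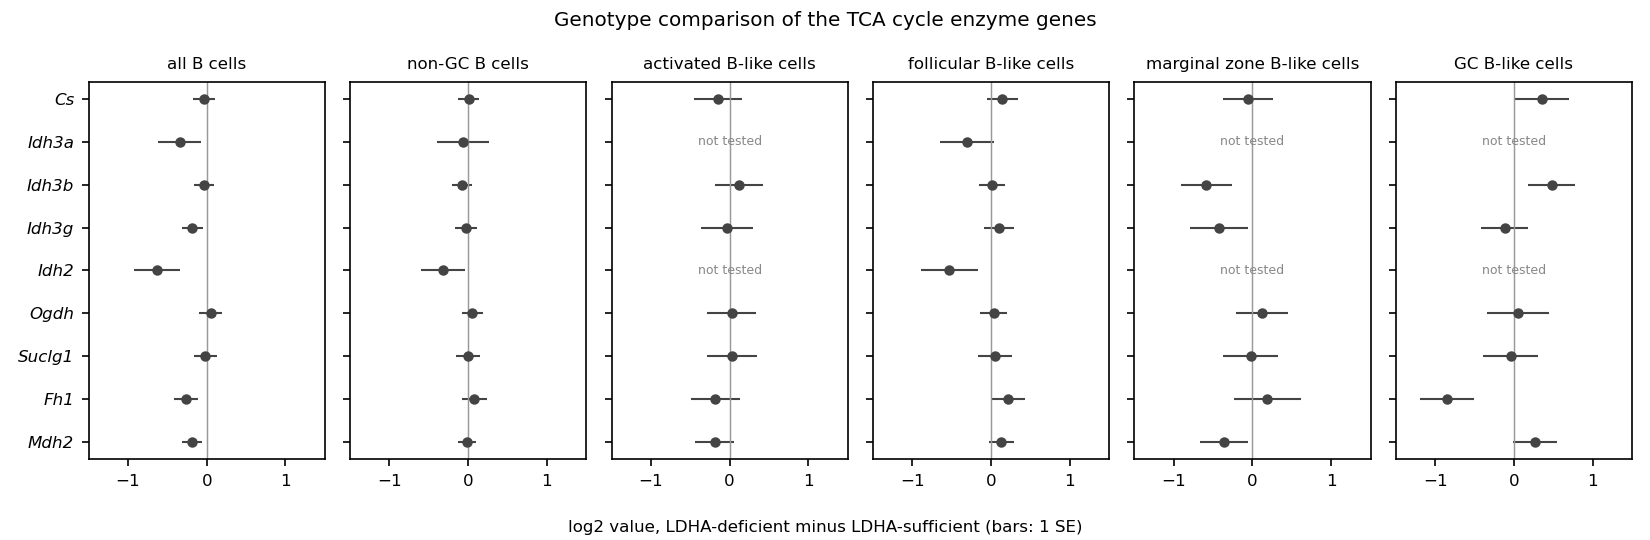
Log2 values, LDHA-deficient minus LDHA-sufficient, of the 9 TCA cycle enzyme genes (rows) in 6 classes of cells (panels), from edgeR with bars of 1 SE. In non-GC B cells all values lie between -0.32 and 0.08, while Fh1 in GC B-like cells lies at -0.85.

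Within single states the members also gave no call by edgeR or DESeq2. Activated B-like cells held 7 members with enough counts to test, with log2 values between -0.19 (Mdh2) and 0.12 (Idh3b) and 0.0846% of 3546 genes called. In 0 of them did the genotypes not overlap, beside 9.7% of all genes tested. Follicular B-like cells held all 9, between -0.53 (Idh2, SE 0.37) and 0.22 (Fh1, SE 0.21), with 0.0287% of 6959 genes called and 0 members without overlap, beside 10% of all genes tested. Marginal zone B-like cells were compared in 3 LDHA-deficient and 2 LDHA-sufficient mice, since LDHA-sufficient mouse 3 had 18 such cells, under the minimum of 20. There 7 members were tested and 0.303% of 3957 genes were called. Idh3b had 52.5, 85.9 and 65.9 CPM in LDHA-deficient mice, against 102 and 105 CPM in LDHA-sufficient mice, with a log2 value of -0.58 (SE 0.33, adjusted p = 0.783, edgeR). Idh3g had 52.5, 60.2 and 36.6 CPM in LDHA-deficient mice, against 69.7 and 70.0 CPM in LDHA-sufficient mice, with a log2 value of -0.42 (SE 0.37, adjusted p = 0.950, edgeR). These 2 of 9 members were those whose genotypes did not overlap in marginal zone B-like cells, beside 21.9% of all genes tested. Idh3a and Idh2 fell under the count filter in activated, marginal zone and GC B-like cells. At an unadjusted p under 0.05 no member passed in activated, follicular or marginal zone B-like cells.

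Over all B cells, where the shares of GC B-like and plasma cell-like cells enter, 8 of the 9 members had negative values and Ogdh a positive one (0.05). edgeR called 110 of 9182 genes (1.2%) and 0 of the 9 members, with 0 at an unadjusted p under 0.05 and 0 by DESeq2. The count over all genes depended on single mice, at 4 without LDHA-deficient mouse 3, 6 without LDHA-deficient mouse 2 and 1401 without LDHA-sufficient mouse 3. Idh2 had 26.2, 13.5 and 10.6 CPM in LDHA-deficient mice, against 32.9, 24.4 and 20.3 CPM in LDHA-sufficient mice. LDHA-deficient mouse 1 lay within the LDHA-sufficient range, and the log2 value was -0.63 (SE 0.30, adjusted p = 0.302, edgeR). Idh3a had 31.6, 21.7 and 36.2 CPM in LDHA-deficient mice, against 51.3, 36.4 and 21.7 CPM in LDHA-sufficient mice, with the highest value in LDHA-sufficient mouse 1 and the lowest in LDHA-deficient mouse 2 (log2 value -0.34, SE 0.27). The median log2 value of the members was -0.18, beside 0.02 for all genes tested, and for 0 of 9 members did the genotypes not overlap, beside 19.2% of all genes. Without LDHA-sufficient mouse 1 the median was -0.078 and Idh3a stood at -0.03, and without LDHA-deficient mouse 1 Idh2 stood at -1.08. Plasma cell-like cells numbered 2, 0 and 1 in LDHA-deficient mice, against 7, 3 and 4 in LDHA-sufficient mice. Plasma cell markers (7 of 7 detected) ranged over 414 to 872 CPM in all B cells of LDHA-deficient mice and 1457 to 3109 CPM in those of LDHA-sufficient mice, and their part in these values was not tested.

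Summed over the 9 members, all B cells had 637, 599 and 622 CPM in the LDHA-deficient mice, against 753, 709 and 576 CPM in the LDHA-sufficient mice. LDHA-sufficient mice 1 and 2, the mice with the most GC B-like cells, were the highest, and LDHA-sufficient mouse 3 was the lowest of the 6. Without the GC B-like and plasma cell-like cells the sums were 614, 591 and 611 CPM in LDHA-deficient mice, against 639, 597 and 569 CPM in LDHA-sufficient mice. Per GC B-like cell the members gave 12, 10.7 and 14.2 UMIs in LDHA-deficient mice, against 13.3, 11 and 8.87 in LDHA-sufficient mice, and the genotypes overlapped.

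**Figure D2:**
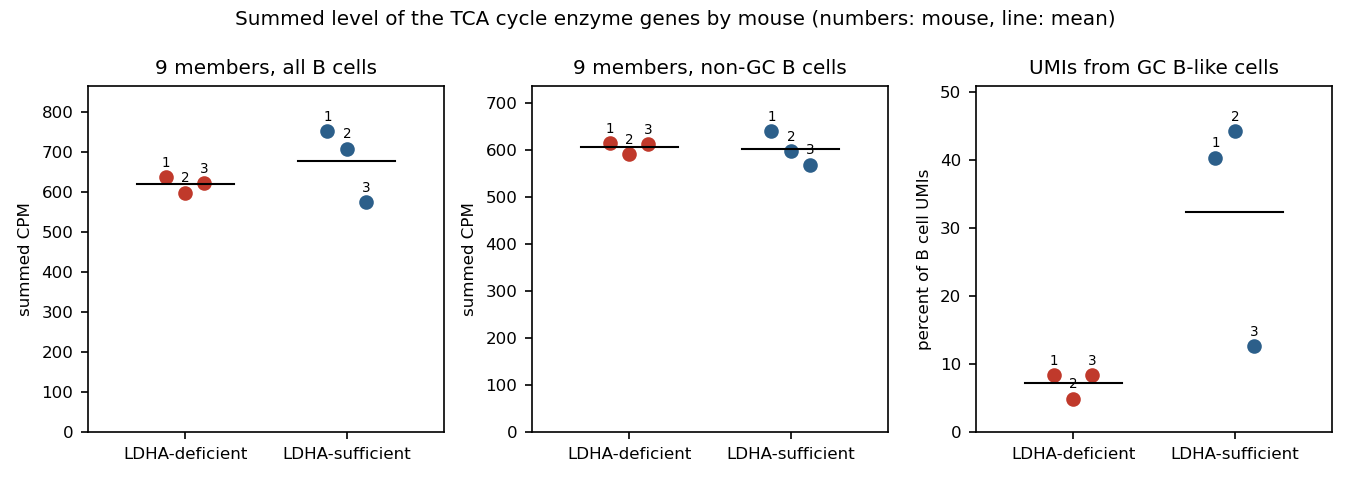
Summed CPM of the 9 TCA cycle enzyme genes in all B cells (left) and in non-GC B cells (middle), and the percent of B cell UMIs that came from GC B-like cells (right), with 1 numbered point per mouse and a line at the mean of each genotype. LDHA-sufficient mice 1 and 2 stand at 753 and 709 CPM in all B cells and at 639 and 597 CPM outside the GC B-like cells.

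Fh1 in GC B-like cells stood out among the members, though it did not pass the test. It had 55.2, 47.5 and 62.8 CPM in the LDHA-deficient mice, from 9, 6 and 5 cells, against 109, 107 and 105 CPM in the LDHA-sufficient mice, from 62, 75 and 15 cells. Each LDHA-deficient mouse lay below each LDHA-sufficient mouse, and the LDHA-sufficient mice lay within 5 CPM of each other. These values rest on 6, 4 and 6 UMIs of Fh1 in LDHA-deficient mice, against 98, 103 and 19 UMIs in LDHA-sufficient mice. Single UMIs thus move several of them by more than that closeness. The log2 value was -0.85 (SE 0.34, unadjusted p = 0.0228, adjusted p = 0.576, edgeR). Among 7 members tested here, Fh1 was the 1 member at an unadjusted p under 0.05, 0 were called by edgeR or DESeq2, and 0% of 2717 genes were called by edgeR at all, while 205 were at an unadjusted p under 0.05 and DESeq2 called 9 genes. Idh3g was the other member without overlap, at 92.0, 83.1 and 94.2 CPM in LDHA-deficient mice, against 99.1, 110 and 105 CPM in LDHA-sufficient mice, and 13.7% of all genes tested had no overlap. The LDHA-deficient values of Idh3g rest on 10, 7 and 9 UMIs, so that single UMIs move them by more than the gap between genotypes. Its log2 value was -0.12 (SE 0.30, adjusted p = 0.950, edgeR).

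The Fh1 values were also read within the sub-clusters. In the sub-cluster low in GC markers Fh1 had 13 UMIs in 14 LDHA-deficient cells (56.0 CPM), against 57 UMIs in 31 LDHA-sufficient cells (99.7 CPM). The LDHA-sufficient mice there had 57.8, 133 and 106 CPM, and LDHA-deficient mouse 1, the only one of its genotype with at least 5 such cells, had 51.2 CPM. In the less mitotic of the other sub-clusters Fh1 had 1 UMI in 5 LDHA-deficient cells, against 85 UMIs in 79 LDHA-sufficient cells (92.7 CPM), and in the sub-cluster high in mitotic genes 2 UMIs in 1 LDHA-deficient cell, against 78 UMIs in 42 LDHA-sufficient cells (142 CPM). LDHA-sufficient mouse 1 was thus close to LDHA-deficient mouse 1 among cells low in GC markers, where Fh1 had too few UMIs for a test. T and NK markers (8 of 9 detected) ranged over 0 to 110 CPM in GC B-like cells of LDHA-deficient mice and 3.34 to 376 CPM in those of LDHA-sufficient mice, and their part was not tested.

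The genotype effect in GC B-like cells was set against that in non-GC B cells by an interaction term with the mouse as a block. The difference for Fh1 was -1.10 (SE 0.44, unadjusted p = 0.0131, adjusted p = 0.580, edgeR), and it did not pass. The other 8 members had differences between -0.35 (Idh3a) and 0.44 (Idh3b). Of 9556 genes 0.115% were called, among them 0 members by edgeR and 0 by DESeq2, and Fh1 was the 1 member at an unadjusted p under 0.05.

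The next question was how the members are used across the B cell states, which are clusters of the same cells, so that the values are a description with no test. Per cell, the 9 members gave 11.7 ± 1.93 UMIs in GC B-like cells and 4.95 ± 0.90 in activated B-like cells, against 2.75 ± 0.17 in non-GC B cells (SD, n = 6 mice each). Total UMIs per cell differed in the same order, at 14095 ± 2652 in GC B-like and 6795 ± 682 in activated B-like cells, against 4560 ± 148 in non-GC B cells. As a share of all UMIs the 9 members held 836 ± 107 CPM in GC B-like cells and 725 ± 89.4 CPM in activated B-like cells, against 603 ± 24.0 CPM in non-GC B cells. The non-GC B cells include the activated B-like cells. Without these the members had 2.45 ± 0.15 UMIs per cell, of 4253 ± 202 UMIs in total, and 576 ± 15.3 CPM. Each of the 6 mice lay between 735 and 993 CPM in GC B-like cells, above its own and every other non-GC value, which ran between 569 and 639 CPM. Interferon-responding B-like cells had 556 ± 43.6 CPM and marginal zone B-like cells 572 ± 46.3 CPM (SD, n = 5 mice each), and the follicular B-like clusters had 558 ± 47.4 CPM (the cluster with Klf2) and 599 ± 36.7 CPM (the cluster with Satb1). These 4 values lie within about 1 SD of one another.

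**Figure D3:**
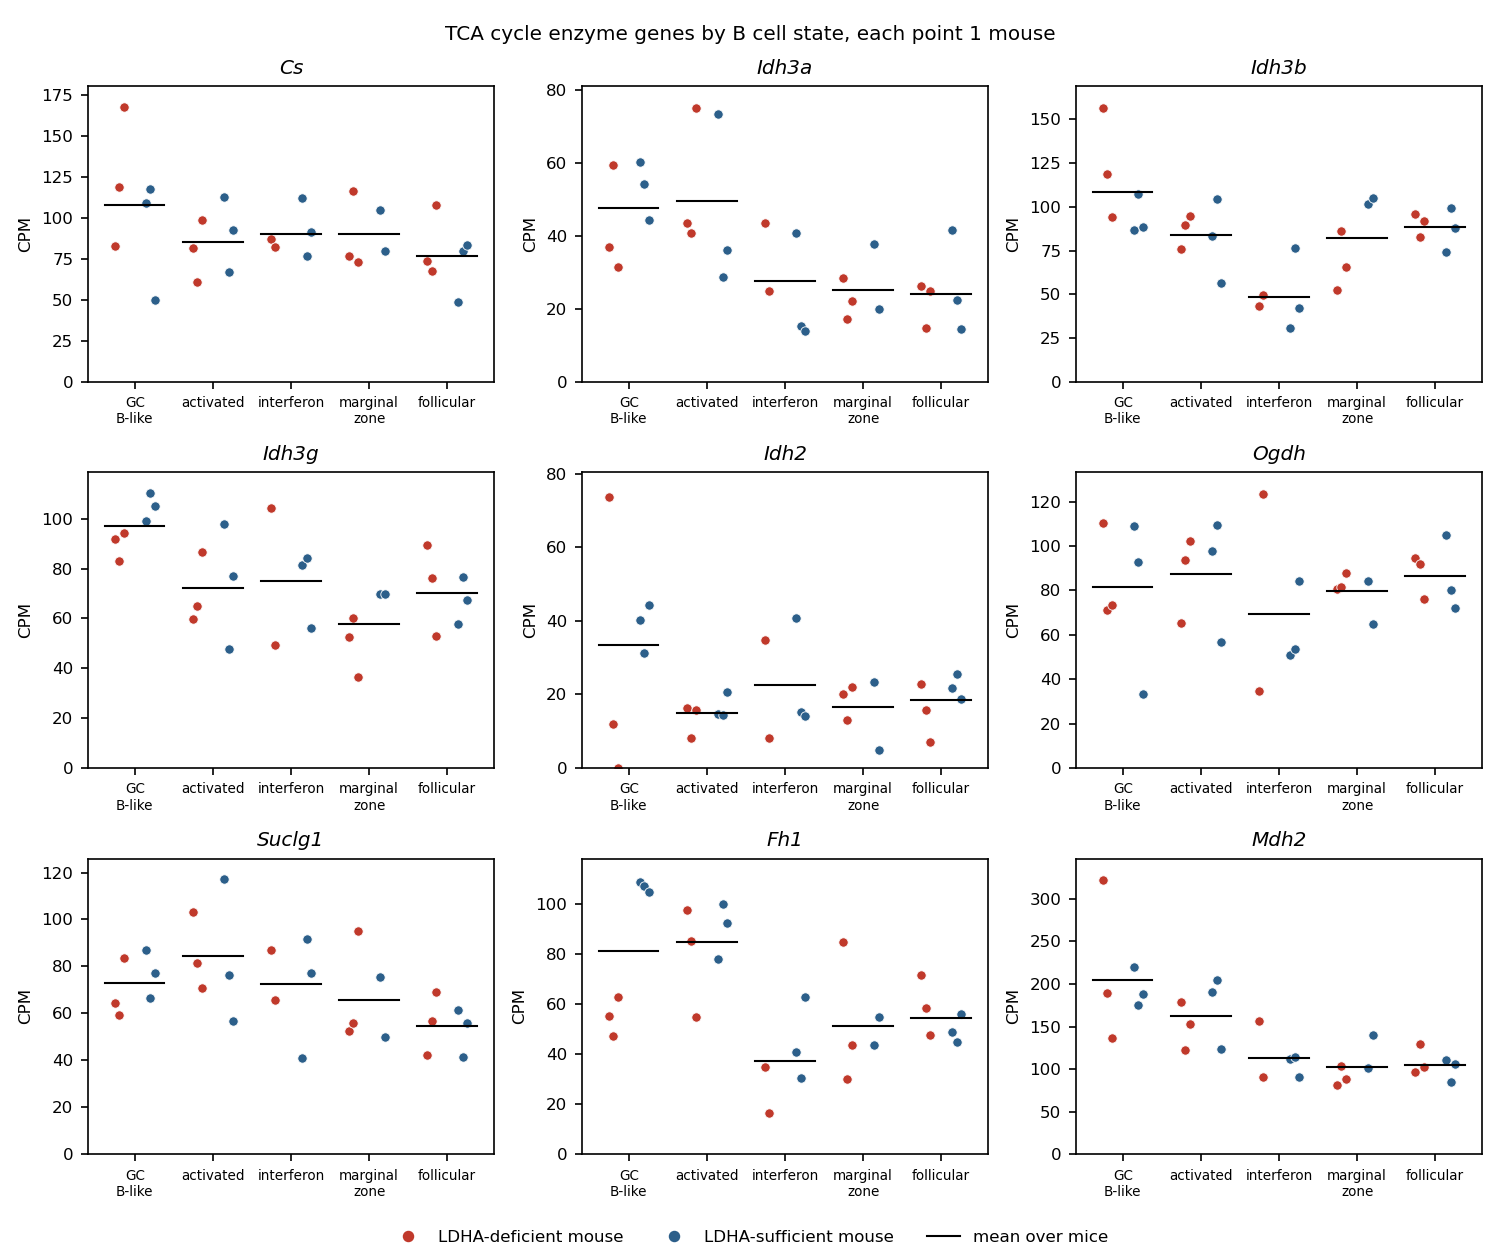
CPM of each TCA cycle enzyme gene in 5 B cell states, with 1 point per mouse (LDHA-deficient left, LDHA-sufficient right in each state) and a line at the mean over mice. Mdh2 averages 205 CPM in GC B-like and 162 CPM in activated B-like cells and 103 to 113 CPM in the other states. In GC B-like cells the genotypes do not overlap for Fh1 and Idh3g, beside 13.7% of all genes tested. The Fh1 points of LDHA-deficient mice there rest on 6, 4 and 6 UMIs, and neither gene passed the test.

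The members differed in how far GC B-like and activated B-like cells stood apart from the rest. Mdh2, the step that remakes oxaloacetate, had 322, 190 and 136 CPM in GC B-like cells of LDHA-deficient mice and 221, 175 and 188 CPM in those of LDHA-sufficient mice, against 107 to 122 CPM in non-GC B cells over the 6 mice. GC B-like cells were higher in 6 of 6 mice, with no overlap between the states. Idh3b was also higher in GC B-like cells of 6 of 6 mice, at an edgeR log2 value of only 0.03 (SE 0.18). How many of all genes show such counts or lack of overlap between states was not determined, for these members or for the genes named below. The counts of mice compare CPM without further scaling. In activated B-like cells Mdh2 had 179, 122 and 154 CPM in LDHA-deficient mice and 191, 205 and 123 CPM in LDHA-sufficient mice, against 99.3 to 122 CPM in the other non-GC B cells. Here too each mouse was higher in the activated cells, by a ratio of 1.00 in LDHA-deficient mouse 2 and up to 2.04 in LDHA-sufficient mouse 2.

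Fh1 averaged 84.9 ± 16.7 CPM in activated B-like cells, against 52.9 ± 9.58 CPM in the other non-GC B cells (SD, n = 6), and was higher in 6 of 6 mice. By mouse the activated cells had 97.9, 85.4 and 55.1 CPM in LDHA-deficient and 78.2, 100 and 92.6 CPM in LDHA-sufficient mice, so that the genotypes overlapped. In GC B-like cells Fh1 averaged 81.2 ± 28.9 CPM, against 58.3 ± 9.16 CPM in non-GC B cells. There the 3 LDHA-sufficient mice were higher than their own non-GC cells, by ratios of 1.69 to 2.11, and 1 of 3 LDHA-deficient mice was, at ratios of 0.74, 0.86 and 1.24.

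Idh3a had the largest log2 difference of any member between activated B-like and other non-GC B cells (0.98), with 49.5 ± 19.7 CPM in activated B-like cells, against 24.3 ± 9.31 CPM in the other non-GC B cells (SD, n = 6). It was higher in 6 of 6 mice, although the ranges over mice, 28.6 to 74.8 and 15.4 to 40.2 CPM, overlapped. In GC B-like cells it averaged 47.7 ± 12.1 CPM, against 29.1 ± 10.8 CPM in non-GC B cells, and was higher in 5 of 6 mice. In activated cells the regulatory subunits stood near the level of the other cells. Idh3b averaged 84.1 ± 16.7 CPM in activated B-like cells and 85.4 ± 7.19 CPM in the other non-GC B cells, and Idh3g 72.3 ± 18.4 CPM and 68.6 ± 10.9 CPM. In GC B-like cells Idh3g averaged 97.3 ± 9.75 CPM, against 69.7 ± 6.13 CPM in non-GC B cells. Its lowest GC B-like mouse, LDHA-deficient mouse 2 at 83.1 CPM, lay above its highest non-GC value of 78.5 CPM. That lowest value rests on 7 UMIs of Idh3g, so that a single UMI moves it by more than this gap.

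Counted within each mouse, the cells had 0.60 ± 0.22 UMIs of Idh3a per UMI of Idh3b when activated, against 0.29 ± 0.13 in the other non-GC B cells, and 0.46 ± 0.16 when GC B-like (SD, n = 6). Per UMI of Idh3g the values were 0.67 ± 0.14 in activated and 0.49 ± 0.14 in GC B-like cells, against 0.36 ± 0.16 in other non-GC B cells. Both ratios were higher in the activated than in the other cells of 6 of 6 mice, although the ranges over mice overlapped. Among the other cells, the interferon-responding ones had 0.67 ± 0.48 UMIs of Idh3a per UMI of Idh3b (SD, n = 5), from 16 and 30 UMIs, and 0.37 ± 0.15 per UMI of Idh3g. The ratios rest on 65 UMIs of Idh3a in activated, 126 in GC B-like and 144 in other non-GC B cells, are ratios of captured molecules, and give no stoichiometry of the enzyme.

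**Figure D4:**
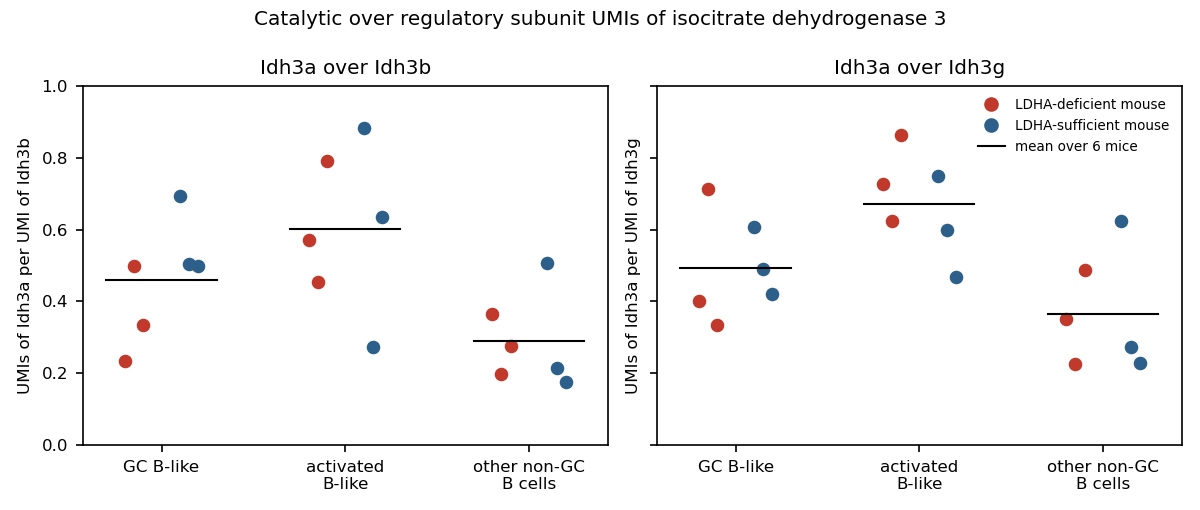
UMIs of Idh3a per UMI of Idh3b (left) and per UMI of Idh3g (right) in GC B-like, activated B-like and other non-GC B cells, with 1 point per mouse (LDHA-deficient left, LDHA-sufficient right in each state) and a line at the mean over 6 mice. The mean over Idh3b is 0.46, 0.60 and 0.29 and the mean over Idh3g 0.49, 0.67 and 0.36, and the points of the states overlap.

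In log2 terms from edgeR with the mouse as a block, the activated minus other non-GC value was 0.98 for Idh3a (SE 0.25), 0.63 for Fh1 (SE 0.18), 0.55 for Mdh2 (SE 0.14) and 0.46 for Suclg1 (SE 0.18). Cs, Idh3b, Idh3g and Ogdh lay between -0.07 and 0.04, and Idh2, at 19 UMIs in activated cells, at -0.32 (SE 0.37). Of the 9 members, 3 had a value above 0.5, beside 19.1% of the 7785 genes fitted. The members' median was 0.04, beside -0.01 for all genes, and 7 of 9 members lay above the median of all genes. With upper-quartile scaling 4 of 9 members were above 0, and 7 of 9 still lay above the median of all genes.

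The GC B-like minus non-GC value was 0.63 for Idh2 (SE 0.30), 0.54 for Mdh2 (SE 0.16), 0.52 for Idh3a (SE 0.25), 0.39 for Fh1 (SE 0.20) and 0.26 for Idh3g (SE 0.18). Cs, Idh3b and Suclg1 lay at 0.12, 0.03 and -0.01, and Ogdh at -0.25 (SE 0.19). Idh2 rested on 83 UMIs in GC B-like cells and ran from 0 CPM in LDHA-deficient mouse 3 to 73.6 CPM in LDHA-deficient mouse 1. Of the 9 members, 3 had a value above 0.5, beside 17.4% of the 9556 genes fitted, and their median was 0.26, beside -0.18 for all genes. The TMM scaling moved the median of all genes by -0.25 relative to library totals. With TMM 7 of 9 members had positive values, and with library totals 9 of 9 did, of which 5 lay above 0.5, at a median of 0.51 beside 0.06 for all genes. Against the median of all genes, 8 of 9 members lay above it under either scaling and Ogdh lay below it, by -0.06 in each. Without the sub-cluster low in GC markers the LDHA-deficient mice fell under the minimum of 5 GC B-like cells, and in the 3 LDHA-sufficient mice alone Fh1 stood at 0.84 (SE 0.22) and Mdh2 at 0.49 (SE 0.20).

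**Figure D5:**
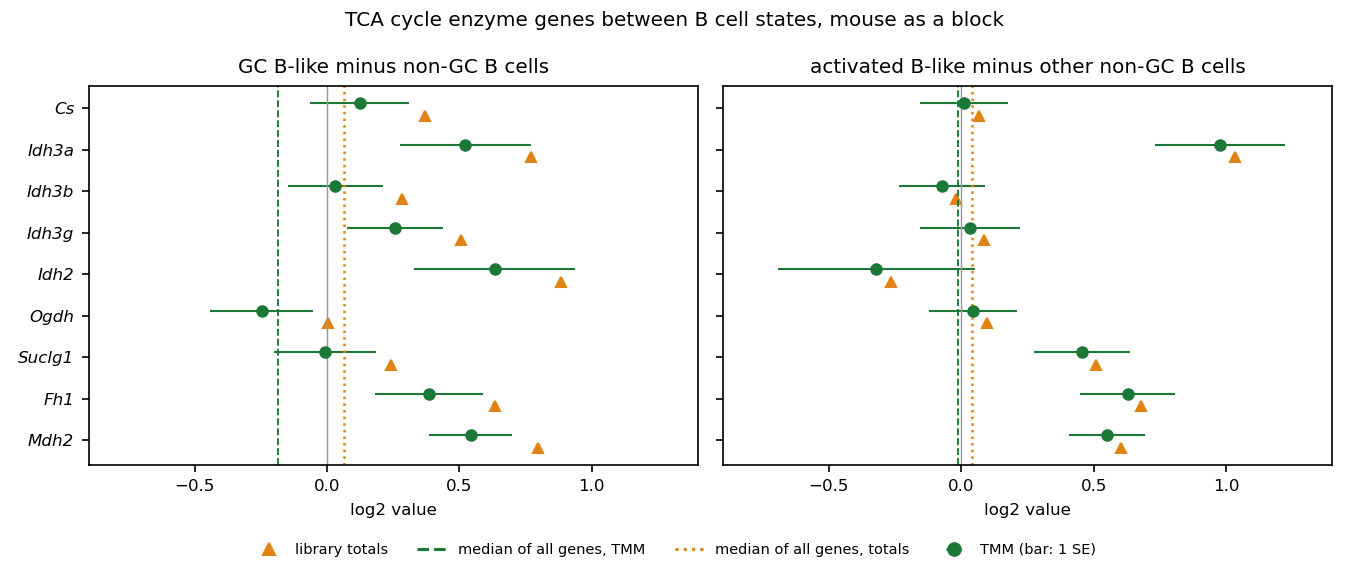
Log2 values of the 9 TCA cycle enzyme genes for GC B-like minus non-GC B cells (left) and activated B-like minus other non-GC B cells (right), with circles and bars of 1 SE for TMM scaling and triangles for library totals. Dashed and dotted lines give the median of all genes, which on the left stands at -0.18 with TMM and 0.06 with library totals, and 8 of 9 members lie above it under each.

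Within each gene the order of the states was mostly not resolved. Means over mice were highest in GC B-like cells for Cs, Idh3b, Idh3g, Idh2 and Mdh2, in activated B-like cells for Idh3a, Suclg1 and Fh1, and in the follicular cluster with Satb1 for Ogdh (98.1 ± 14.8 CPM). The neighbours in these orders lay within 1 SD of each other, except at 3 steps. Idh3a stood at 28.3 ± 16.6 CPM in the follicular cluster with Satb1, next after 47.7 ± 12.1 CPM in GC B-like cells. Mdh2 stood at 118 ± 17.7 CPM in the follicular cluster with Klf2, next after 162 ± 35.0 CPM in activated cells. Idh3b was lowest in interferon-responding cells, at 48.4 ± 17.1 CPM from 30 UMIs, next after 82.2 ± 22.7 CPM in marginal zone cells. Over mice, the ranges of all neighbouring states overlapped.

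Gene lists of the cell cycle, growth and respiration were read beside these levels. Genes of G2 and M phase summed to 5610 ± 813 CPM in GC B-like and 534 ± 224 CPM in activated B-like cells, against 257 ± 29.0 CPM in the other non-GC B cells, and S phase genes to 2946 ± 464 and 1259 ± 426 CPM, against 372 ± 27.8 CPM. MYC targets of growth, with Ldha among the 10, reached 4152 ± 586 CPM in GC B-like and 5610 ± 210 CPM in activated B-like cells, against 2157 ± 74.2 CPM. The 15 nuclear genes of oxidative phosphorylation reached 3890 ± 391 CPM in GC B-like and 3173 ± 54.9 CPM in activated B-like cells, against 2285 ± 87.2 CPM. Red cell markers ranged over 4.76 to 9564 CPM in activated B-like cells, with 1 LDHA-sufficient mouse far above the others. The part of these markers, of division, growth or cell size in the members' values was not tested.

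The remaining genes of the pathway were taken from 3 lists. Of 13 other TCA cycle subunits 12 were tested over all B cells, of 13 genes of pyruvate entry 10, and of 15 genes of exits, refilling and cytosolic counterparts 12. edgeR called 0 of them in any of the 6 classes of cells or in the interaction. Idh1, the cytosolic enzyme that turns over isocitrate, held 82 UMIs, and Ogdhl, Me1, Pdk4 and Acod1 held 0 or 1.

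The genes named by their p over all B cells did not pass. Sdhb, the iron-sulphur subunit of succinate dehydrogenase, had 89.5, 77.2 and 83.9 CPM in LDHA-deficient mice, against 131, 143 and 79.2 CPM in LDHA-sufficient mice, with LDHA-sufficient mouse 3 at the level of the LDHA-deficient mice (log2 value -0.49, SE 0.17). In non-GC B cells its value was -0.18 (SE 0.13). It averaged 181 ± 64.3 CPM in GC B-like cells, against 80.7 ± 9.82 CPM in non-GC B cells, and was higher in 6 of 6 mice. Suclg2, the partner of Suclg1 in the GTP-forming ligase, stood at -0.37 (SE 0.19) over all B cells and averaged 82.3 ± 33.0 CPM in GC B-like cells, against 39.3 ± 2.22 CPM in non-GC B cells. In log2 terms the GC B-like minus non-GC values were 0.89 for Sdhb (SE 0.17) and 0.78 for Suclg2 (SE 0.21), beside 0.54 for Mdh2.

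At the entry of pyruvate, Pdk3, a kinase that switches off pyruvate dehydrogenase, stood at -0.60 over all B cells on the log2 scale (SE 0.23, adjusted p = 0.209, edgeR). Dlat, a core component of that dehydrogenase, had 0.36 (SE 0.19), and Pdp2, a phosphatase that switches it back on, had 0.59 (SE 0.33) from 98 UMIs. In non-GC B cells these values were -0.18, 0.34 and 0.27, with adjusted p between 0.944 and 0.994 (edgeR). Among the exits, Got2, the mitochondrial aspartate aminotransferase of the malate-aspartate shuttle, had -0.47 over all B cells (SE 0.17, adjusted p = 0.184, edgeR) and -0.41 in non-GC B cells (SE 0.15, adjusted p = 0.751, edgeR). Mdh1, the cytosolic malate dehydrogenase of the same shuttle, had -0.31 (SE 0.12) over all B cells and -0.13 (SE 0.11) in non-GC B cells.

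Likeness to the members was measured over 24 sums of a mouse and a state with at least 20 cells, 2 of them GC B-like, as the correlation with the mean log2 CPM of the 9 members. The sums share mice, the sequencing lane and differences in depth, so the values are a description. Of 3163 genes with a mean of at least 50 CPM, Tuba1b came first (r = 0.90), followed by Hnrnpa2b1, Srsf1, Smarcc1, Lsm6, U2af1, Casp8ap2, Snrpd1, Tubb5 and Rbm3, down to 0.845. Tuba1b and Tubb5 encode tubulins, and Hnrnpa2b1, Srsf1, U2af1 and Snrpd1 encode factors that bind or splice RNA. Among themselves the members were weakly alike, with a median r of 0.18 over 36 pairs and a range of -0.28 to 0.60. Mdh2 and Idh3a were each other's most alike member (r = 0.60), and Mdh2 was also the most alike for Fh1 (0.53), Suclg1 (0.49) and Idh3g (0.48). Cs was most alike to Idh3g (0.40), Idh2 to Idh3g (0.44), and Ogdh and Idh3b to each other (0.44).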

How the data were processed

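Gene and hashtag values were deposited by the authors as UMI counts per barcode (2836 and 2831 barcodes), and Cell Ranger 6.0.0, Seurat 4.2.1 and mm10 are named in the submitters' processing notes, while the file header names Cell Ranger 6.0.2. The sources used here do not say whether counting used strand. Hashtag and heavy chain labels name HSPCs, against the sort for B cells in the labels' protocols. Heavy chains were not used here.

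HTODemux (Seurat 5.3.0, quantile 0.99) assigned hashtags and gave 1856 single barcodes and 820 with several mice, removed as doublets. Scrublet called 0 more, though about 167 doublets within a mouse are expected. Cells with 500 genes, 1000 UMIs and under 10% mitochondrial UMIs were kept and clustered with scanpy 1.11.5 (Leiden, resolution 0.8, 2000 variable genes, 30 components, 20 neighbours, 50 list genes left out). A name needed 3 markers at 1.5-fold and in 10% of cells, and rebuilt names can differ from the study's.

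Counts were summed per mouse and state (at least 20 cells, GC B-like 5) and tested with edgeR 4.0.16 (R 4.3.3, TMM, filterByExpr, robust quasi-likelihood, adjusted p under 0.05), with DESeq2 1.42.0 as an alternative. SE is the log2 value over the root of F. The fit was also run on counts simulated with its own dispersion estimates, which checks the code only and gives no power for these cells. Correlations used log2(CPM + 1). Named genes were the 9 members, Ldha, the called genes and 3 smallest p per pathway list, and the 10 most alike, of which 2 pathway genes are not reported here. Members and lists were chosen with earlier results of these data known. Whether mice were litter mates is not given, so p-values measure the spread between these 6 mice. Counting intervals were not used.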

Additional observations from a re-analysis of the deposited data

How the results depend on the processing

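No member was called between genotypes under any of 100 alternatives of the 7 counts (DESeq2, other scalings, no count filter, each mouse left out, hashtags by ratio, Scrublet scores, other clusterings, equal cells), and the smallest adjusted p of a member among 793 values was 0.0627. Under DESeq2 the genes called in all were 183 against 110 by edgeR over all B cells, 1 against 5 in non-GC B, 1 against 2 in follicular, 3 against 12 in marginal zone and 9 against 0 in GC B-like cells, and 0 against 11 in the interaction. Library totals without TMM gave 63 over all B cells, 3 in non-GC B and 1 in activated B-like cells, the last against 3. Without the filter on low counts edgeR called 662 genes over all B cells, 29 in non-GC B and 50 in GC B-like cells. That setting gave 15 in activated, 19 in follicular and 20 in marginal zone B-like cells, and 37 in the interaction. With 1 mouse left out edgeR called 4 to 1401 genes over all B cells, 5 to 15 in non-GC B, 3 to 12 in activated, 2 to 9 in follicular, 5 to 14 in marginal zone and 0 to 4 in GC B-like cells, and 1 to 75 in the interaction.

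The median log2 value of the members moved by more than the spread between mice in follicular B-like cells (0.05) to -0.0447 with the highest Scrublet scores removed and -0.069 at Leiden resolution 0.4, where Fh1 (0.22) turned to -0.0447 and -0.13. In both settings the cluster with Klf2 got no name. The follicular B-like class there was thus a different set of cells, 511 and 727, against clusters of 489 and 579 in the main setting. Leaving out 1 mouse gave a median of -0.0066 (without LDHA-deficient mouse 1) to 0.15 (without LDHA-sufficient mouse 1). In marginal zone B-like cells (-0.06) it stood at -0.25 with hashtags by ratio, -0.37 with Scrublet scores removed and -0.28 at resolution 1.2, and at -0.32 (without LDHA-deficient mouse 2) to -0.12 with 1 mouse left out. In GC B-like cells (0.05) equal cells per mouse left 1 member to test, at 0.83. Fh1 in GC B-like cells stood between -1.05 and -0.64 under the alternatives that tested it (equal cells and the sub-cluster low in GC markers alone did not), with adjusted p of 0.431 to 0.998 (edgeR or DESeq2). The causes were not tested. A sign change of a member counted as a reversal when its value exceeded its SE. Scaling by library totals, upper-quartile scaling of states and the splits of GC B-like cells were chosen after seeing the data. At resolution 0.4 activated and marginal zone cells formed a mixed cluster, so neither gave a value. No paired analysis was possible because hashtag numbers name mice and pair none across genotypes.

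Depth limits Idh3a and Idh2 most, at 343 and 224 UMIs over all B cells, and GC B-like cells of LDHA-deficient mice, at 5 to 9 cells each.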
